A study of Mus musculus with 4 samples.

Results

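Lymphatic endothelial genes were examined in the popliteal lymph nodes (PLNs) of wild-type and arthritic mice by spatial transcriptomics. The group comprised 10 genes out of the 32247 gene symbols counted, taken by name as genes in use by lymphatic endothelium: Prox1, Flt4, Lyve1, Pdpn, Mmrn1, Reln, Stab1, Stab2, Ccl21a and Itga2b. Each of the 10 had UMIs on every capture area, from 322 UMIs over the 4 areas for Prox1 to 10780 for Ccl21a. PLNs were laid on 4 Visium capture areas, arrays of barcoded spots that capture the RNA of a tissue section and count each captured molecule once through its unique molecular identifier (UMI). The WT area held 10 PLNs of 5 wild-type mice aged 5.5 months. The Early area held 6 PLNs of 3 TNF-Tg mice of 5.5 months with Early arthritis, and Advanced areas 1 and 2 each held 6 PLNs of 3 TNF-Tg mice of 8.5 to 9 months with Advanced arthritis. TNF-Tg mice carry a TNF transgene, and every mouse was a C57BL/6 male whose hindpaw had received Evans blue dye before harvest. Age and stage cannot be told apart in the Advanced mice, the PLNs of several mice were pooled on each area, and WT and Early were represented by 1 area each.

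Lymph enters a lymph node under the capsule and runs through sinuses to the medulla, and lymphatic endothelial cells line these sinuses. Prox1 is the transcription factor that sets lymphatic identity, and signalling by VEGF-C through the receptor VEGFR-3, the product of Flt4, drives lymphatic growth. The endothelium of the node differs from place to place, with a ceiling and a floor in the sinus under the capsule and a medullary lining rich in scavenger receptors. Several of these genes are shared with other cells of the node: Stab1 and Lyve1 can be made by macrophages, Pdpn and Ccl21a by fibroblastic reticular cells, and Itga2b by platelets and megakaryocytes. Each spot takes in more than 1 cell and often more than 1 cell type, so a level belongs to the spot and not to a cell. Fewer cells of a type and less RNA per cell cannot be told apart in such sums.

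On GRCm38 (GENCODE M21) Prox1 (ENSMUSG00000010175) lies on chromosome 1 from 190118035 to 190170714 on the minus strand, and Flt4 (ENSMUSG00000020357) on chromosome 11 from 49609263 to 49652739 on the plus strand. Lyve1 (ENSMUSG00000030787) lies on chromosome 7 from 110850607 to 110863239, Stab2 (ENSMUSG00000035459) on chromosome 10 from 86841198 to 87008025, and Ccl21a (ENSMUSG00000094686) on chromosome 4 from 42772860 to 42773993, each on the minus strand. Ccl21a is one of several near-identical genes. Its UMIs lay on this feature, and a second feature of the same symbol (ENSMUSG00000095320, on an unplaced scaffold) had 0. Ccl21b, Ccl21c, Gm10591 and Gm21541 had 0 UMIs on every area and Gm13304 had at most 3, so the level given as Ccl21a may include reads of its copies.

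The promoters of the 2 genes on which the spatial and stage results turn are shown from 250 bases before to 50 bases after the start of transcription, on the coding strand, from RefSeq (GRCm38.p6). Windows were found for 9 of the 10 genes, and for Lyve1 none was used. The Ccl21a window spans chr4:42773942-42774241 and the Stab2 window chr10:87007893-87008192, both on the minus strand.
Ccl21a: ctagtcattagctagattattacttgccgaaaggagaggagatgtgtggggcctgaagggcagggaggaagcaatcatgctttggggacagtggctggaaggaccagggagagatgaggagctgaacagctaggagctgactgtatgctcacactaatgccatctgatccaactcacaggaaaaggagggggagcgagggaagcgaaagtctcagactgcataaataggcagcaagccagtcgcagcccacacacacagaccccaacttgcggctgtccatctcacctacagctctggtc
Stab2: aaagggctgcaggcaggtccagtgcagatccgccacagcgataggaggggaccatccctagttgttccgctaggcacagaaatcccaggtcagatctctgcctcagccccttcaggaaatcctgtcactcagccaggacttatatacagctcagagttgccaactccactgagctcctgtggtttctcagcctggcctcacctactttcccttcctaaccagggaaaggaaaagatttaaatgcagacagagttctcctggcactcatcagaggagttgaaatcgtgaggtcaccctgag
The windows were searched on both strands for a TATA box (TATAAA, in 13.6% of the 32851 promoter windows of all genes), a GATA motif (AGATAA, 11.2%), an ETS motif (CCGGAA, 14.9%), a SOX motif (ACAATG, 12.6%) and the NF-kB consensus (8.46%). Motifs would be in capitals, and neither window held one. Of the 10 windows of these genes, 1 of Prox1 held TATAAA, the window of Reln held CCGGAA and that of Mmrn1 held ACAATG. A match is a run of letters and not a bound site.

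The areas held 833 to 2015 spots and 1808678 to 5180493 UMIs. Levels are given as UMIs per 10000 UMIs of the same spots, with exact Poisson 95% intervals that cover counting error only. Spots at the tissue edge, with at least 1 of their 6 neighbours not under tissue, are called the rim, and the others the interior. Spots marked as under tissue formed connected pieces that may span several nodes, so the rim is the edge of such pieces and not of every node. Depth differed with position, and median spots held 2113 to 5541 UMIs in the rim and 140.5 to 250.5 in the interior. The rim gave 79.3% of the UMIs on the WT area but 47.9% on Advanced area 1. At least 1000 UMIs were held by 84 of 580 interior spots on WT and 222 of 1011 on Early. On Advanced 1 it was 387 of 1700, and on Advanced 2 it was 321 of 1380. How much tissue lay under the shallow spots was not examined, so rim and interior are positions on the array. The lymph node was recognisable by its B cell markers, of which 5 of 5 were present on every area.

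Across whole areas, 6 of the 10 genes were highest on WT, 3 on Early and 1 on Advanced area 2, and 5 were lowest on Early. The same counts were not made over all genes, so they describe these 10 only. The genes that stood highest on WT were Flt4, Lyve1, Mmrn1, Stab1, Stab2 and Ccl21a. Prox1 was measured at 0.210 UMIs per 10000 on WT (interval 0.149 to 0.288), 0.255 on Early, 0.243 on Advanced 1 and 0.219 on Advanced 2. The 4 intervals of Prox1 overlapped, and no order could be read from them at this depth.

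**Figure D1:**
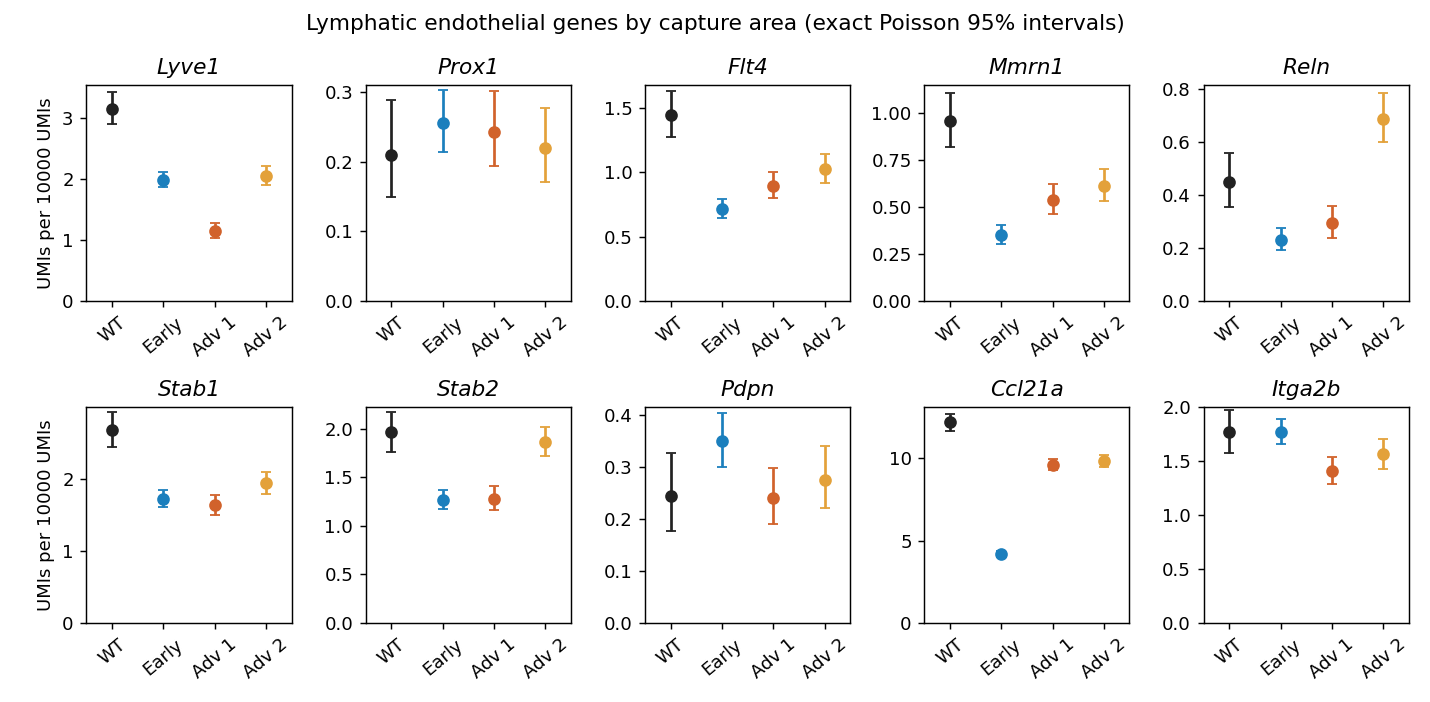
Level of each of the 10 genes on the 4 capture areas, in UMIs per 10000 UMIs over all spots (vertical axes start at 0; points are areas, bars are exact Poisson 95% intervals). Ccl21a stands at 4.20 on Early and between 9.63 and 12.2 on the other areas, whereas the 4 intervals of Prox1 overlap.

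Of the surface receptors, Flt4 stood at 1.44 UMIs per 10000 on WT, 0.712 on Early, 0.897 on Advanced 1 and 1.02 on Advanced 2. Its WT interval (1.27 to 1.63) lay above those of the other areas, and the 2 Advanced intervals overlapped. Lyve1, a hyaluronan receptor, stood at 3.15 on WT, 1.99 on Early, 1.15 on Advanced 1 and 2.05 on Advanced 2. WT was again apart and above, Early and Advanced 2 overlapped, and Advanced 2 stood 1.78 times as high as Advanced 1. Pdpn, the mucin-like glycoprotein podoplanin, stood at 0.243 on WT, 0.349 on Early, 0.240 on Advanced 1 and 0.275 on Advanced 2. Pdpn thus had no area whose interval stood apart from that of its neighbour in the order. The Early interval (0.300 to 0.404) lay just above that of Advanced 1 (0.190 to 0.298).

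Among the secreted products, Mmrn1 (multimerin 1, stored and released by endothelium) stood at 0.957 on WT, 0.351 on Early, 0.539 on Advanced 1 and 0.613 on Advanced 2. The order of Mmrn1 was that of Flt4, with WT highest, Early lowest and the Advanced areas between them with overlapping intervals. Reln, the extracellular glycoprotein reelin, stood at 0.448 on WT, 0.232 on Early, 0.293 on Advanced 1 and 0.688 on Advanced 2. The level of Reln on Advanced 2 was 2.35 times that on Advanced 1, the widest gap between the replicate areas among the 10 genes. Ccl21a, the chemokine that draws CCR7-bearing T cells and dendritic cells, stood at 12.2 on WT, 4.20 on Early, 9.63 on Advanced 1 and 9.83 on Advanced 2. The 2 Advanced areas differed by 1.02-fold in Ccl21a and lay between the others.

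The scavenger receptors Stab1 and Stab2 (stabilin 1 and 2) take up altered proteins and, for Stab2, hyaluronan. Stab1 stood at 2.68 on WT, 1.72 on Early, 1.63 on Advanced 1 and 1.94 on Advanced 2, so that WT stood above the other areas. Stab2 stood at 1.96 on WT, 1.27 on Early, 1.28 on Advanced 1 and 1.87 on Advanced 2. The pairs WT with Advanced 2 and Advanced 1 with Early could not be separated by their intervals. Itga2b, the integrin chain that marks platelets and also a part of the lymph node lymphatics of mice, stood at 1.76 on WT, 1.77 on Early, 1.41 on Advanced 1 and 1.56 on Advanced 2. Each neighbouring pair in the order of Itga2b overlapped. The Advanced 1 interval (1.28 to 1.54) nevertheless lay below those of WT (1.58 to 1.97) and Early (1.66 to 1.89).

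Advanced against Early compared 2 stages of the same transgenic line. Of 10 genes, 2 rose and 0 fell, beside 0.496% of the 13102 genes tested that rose and 0.664% that fell. Ccl21a rose by 1.13 on the log2 scale (SE 0.16, 2.20-fold; adjusted p = 6.96e-10, edgeR quasi-likelihood test over all genes), and both Advanced areas lay above the Early area. Reln rose by 1.00 (SE 0.25, adjusted p = 0.0112). The rise of Reln came to 1.502 without Advanced 1 and to 0.25 without Advanced 2, both values without a test, and DESeq2 gave it an adjusted p of 1, so Advanced 2 decided it. Without Advanced 1 or Advanced 2, Ccl21a was higher by 1.16 and 1.11.

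The other 8 genes did not pass in Advanced against Early. Mmrn1 was higher by 0.63 (SE 0.23, adjusted p = 0.218), with both Advanced areas above Early. Flt4 was higher by 0.35 (adjusted p = 0.750), Stab2 by 0.24 (0.900), and Stab1 differed by -0.024 (0.994). Lyve1 differed by -0.39 (0.528), Pdpn by -0.52 (0.650), Itga2b by -0.33 (0.724) and Prox1 by -0.22 (0.972). The median difference of the 10 genes was 0.11, beside 0.014 over all genes tested. At an unadjusted p under 0.05 there were 4 of the 10, beside 1007 of the 13102 genes tested, and DESeq2 called 1, Ccl21a. Beside Ccl21a, 1 of 10 reticular cell markers rose and 1 fell (median 0.078), and the one that rose was Cxcl12 (0.77, adjusted p = 6.34e-05). Of 10 fat markers 5 rose and 0 fell (median 0.87), with a summed level of 7.35 UMIs per 10000 on Early, 12.7 on Advanced 1 and 17.5 on Advanced 2. Vwf of blood endothelium rose by 1.85 (1 of 10, median 0.48). Cd5l of macrophages rose by 0.84 (1 of 13, median -0.33) and Clec1b of platelets by 1.14 (1 of 3, median -0.14). The medians of the macrophage and platelet lists were thus below 0, and the named genes were picked after their values were seen. The part of these cells in the values of Ccl21a and Reln was not tested. The fit had 1 residual degree of freedom, from the 2 Advanced areas, and the lone WT and Early areas were assumed to vary like them. Its SEs and p-values rest on a spread pooled over genes, so the spread of a single gene between the Advanced areas entered little. Reln had an SE of 0.25 although its Advanced areas differed 2.35-fold.

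Advanced against WT used the same 2 Advanced areas, so the comparisons are not independent. Here 4 of the 10 genes fell and 0 rose, beside 1.34% of all genes tested that fell and 0.733% that rose. Lyve1 fell by 1.09 on the log2 scale (SE 0.18, adjusted p = 4.35e-07, edgeR), Mmrn1 by 0.84 (SE 0.23, adjusted p = 0.0121), Flt4 by 0.70 (SE 0.20, adjusted p = 0.0315) and Stab1 by 0.70 (SE 0.18, adjusted p = 0.0105). For each of the 4, both Advanced areas lay below the WT area. Lyve1 fell unevenly, and the difference was -0.72 without Advanced 1 and -1.58 without Advanced 2. DESeq2 on the same sums called 0 of the 10 genes, with 3 at an unadjusted p under 0.05, beside 267 genes in all. The interior spots alone gave 0 calls in edgeR, with 1 of the 10 at an unadjusted p under 0.05, beside 747 of 11409 genes tested.

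Stab2 differed by -0.43 in Advanced against WT (adjusted p = 0.339), Ccl21a by -0.44 (0.104) and Itga2b by -0.36 (0.500). Prox1, Pdpn and Reln differed by 0.024, -0.031 and 0.018. The median over the 10 genes was -0.43, beside 0.013 over all genes tested. Markers of other cells moved in the same comparison. Of 13 tested sinus macrophage markers 9 fell (median -1.07), among them Cd209b by 1.12 and Marco by 0.80. Marco is also a gene of medullary lymphatics and counts in both the macrophage and the lymphatic list used here. The summed level of the macrophage list was 82.8 UMIs per 10000 on WT, 58.3 on Early, 41.4 on Advanced 1 and 56.6 on Advanced 2. The red cell genes rose in 5 of 5 cases (median 1.78). The part of these cells in the levels of Lyve1, Stab1 and the others was not tested. The RNA of megakaryocytes and platelets was sparse beside Itga2b: their 10 markers summed to between 0.823 and 1.04 UMIs per 10000 on the 4 areas, with Gp6 and Treml1 at 0 on every area.

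Early against WT set 1 area against 1 and was not tested here. Of the 10 genes 7 were lower on Early, with Poisson intervals apart in each of the 7. How many of all genes were lower on Early with intervals apart was not counted, so the 7 describe these genes only. Ccl21a was 2.91 times as high on WT as on Early, Mmrn1 2.72 times, Flt4 2.03 times and Reln 1.93 times. Lyve1, Stab1 and Stab2 were 1.59, 1.56 and 1.55 times as high on WT. Itga2b was at nearly the same level on both, and the intervals of Prox1 and Pdpn, which were higher on Early, overlapped those of WT. Counting intervals leave out the variation between mice, nodes and sections.

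Some of that variation could be seen inside the areas, in connected pieces of tissue of at least 30 spots. The Early area had 4 such pieces, Advanced area 2 had 2, and the WT area and Advanced area 1 were each joined into 1. A piece may hold several nodes, and none was tied to a mouse here. Ccl21a stood at 5.66, 2.92, 1.14 and 5.12 UMIs per 10000 in the 4 Early pieces and at 9.09 and 12.1 in the pieces of Advanced 2. Each Early piece thus lay below both Advanced 2 pieces, below Advanced 1 and below WT. Lyve1 stood at 1.72, 3.21, 1.05 and 0.616 in the same Early pieces, a range that reached the WT level. Stab2 stood at 1.36, 1.61, 0.604 and 0.462 in the Early pieces, and at 1.91 and 1.78 in those of Advanced 2. Reln stood at 0.589 and 0.985 in the Advanced 2 pieces, so its high level there was not that of 1 piece.

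**Figure D2:**
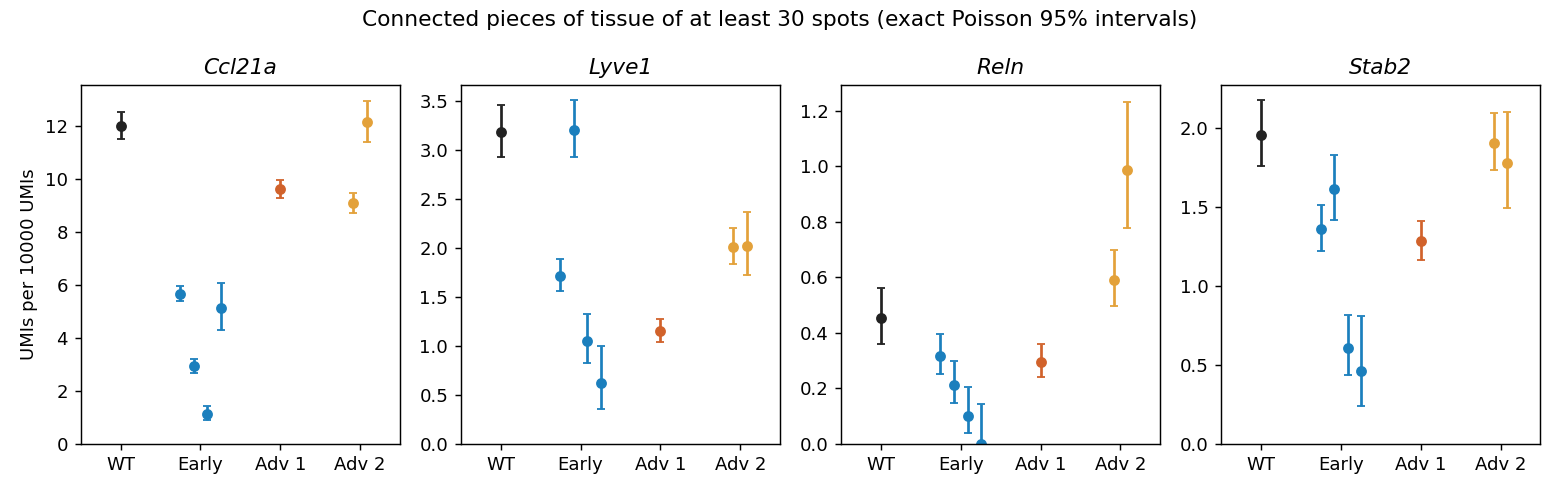
Levels of Ccl21a, Lyve1, Reln and Stab2 in connected pieces of tissue of at least 30 spots, in UMIs per 10000 UMIs (points are pieces, bars exact Poisson 95% intervals, colours as capture areas). The 4 Early pieces of Ccl21a lie between 1.14 and 5.66, below the pieces of the other areas, while those of Lyve1 spread from 0.616 to 3.21.

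Rim against interior asked where in the tissue the genes were measured. In the fit over the 4 areas, with the area as a block, 2 of the 10 genes were lower in the rim and 0 were higher, beside 3.49% and 4.14% of the 11675 genes tested. At an unadjusted p under 0.05 there were 6, beside 2464 of the 11675 genes tested, and DESeq2 called 1 lower and 0 higher. Ccl21a was lower in the rim by 0.52 on the log2 scale (-0.52, SE 0.12, adjusted p = 0.00999, edgeR). Itga2b was lower by 0.45 (-0.45, SE 0.13, adjusted p = 0.0319). Without the Early area Ccl21a had an adjusted p of 0.0545, and without Advanced 2 one of 0.219. Itga2b lost its call without any 1 of the TNF-Tg areas (adjusted p 0.0815 to 0.398).

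Behind these values stood an unlike pattern on the WT area. Of the 10 genes 7 were higher in the rim on WT, whereas 10, 7 and 9 were lower in the rim on Early, Advanced 1 and Advanced 2. These directions were not counted over all genes. The median log2 ratio of rim to interior was 0.26 on WT, -0.61 on Early, -0.56 on Advanced 1 and -0.37 on Advanced 2. Over the 3 TNF-Tg areas alone, 6 of the 10 genes were called lower in the rim and 0 higher, beside 4.31% of the 11674 genes tested that were lower and 5.28% that were higher. At an unadjusted p under 0.05 there were 7 of the 10, beside 2646 of the 11674. The median difference of the 10 genes was -0.49, beside -0.0080 over all genes tested. Stab2 was among the 6 called, with a difference of -0.68 (adjusted p = 3.90e-05, edgeR).

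**Figure D3:**
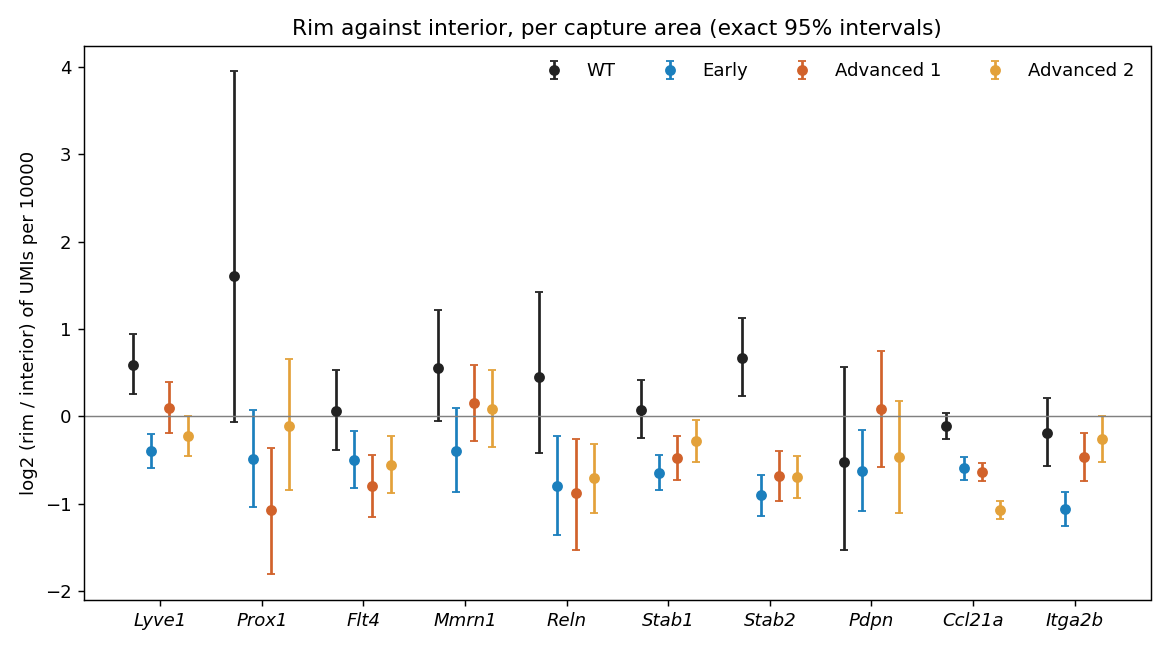
Log2 ratio of the level in the rim to that in the interior for each gene and capture area (points, with exact 95% intervals from counting error; the line marks no difference). Stab2 stands at 0.67 on WT and between -0.90 and -0.68 on the TNF-Tg areas, and Ccl21a falls from -0.11 on WT to -1.07 on Advanced 2.

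Stab2 was the gene called when this difference was tested. In the WT area it stood at 2.13 UMIs per 10000 in the rim and 1.34 in the interior. On the Early area it stood at 1.05 in the rim and 1.95 in the interior, on Advanced 1 at 0.977 and 1.56, and on Advanced 2 at 1.53 and 2.48. The rim was thus the higher region on WT and the lower one on each TNF-Tg area. The difference between the genotypes was tested as an interaction, a comparison added after the data were seen. The rim-to-interior difference of Stab2 was lower in TNF-Tg than in WT by 1.43 on the log2 scale (-1.43, SE 0.26, adjusted p = 0.0102, edgeR). It was the 1 member called, and 0 of the 10 were higher. Of the 12254 genes tested, 0.163% were lower and 0.0326% were higher. At an unadjusted p under 0.05 there were 7 of the 10, beside 1182 of the 12254.

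The Stab2 difference held its call without the second ring of spots, in spots of at least 1000 UMIs and without each TNF-Tg area, with values from -2.39 to -1.37. WT was 1 area, and its spread was taken to be that of the TNF-Tg areas. Of 12 tested sinus macrophage markers 8 moved the same way in the interaction (median -1.20). Among them were Marco (shared with medullary lymphatics) by -1.39, Cd209b by -1.36 and Timd4 by -1.50. The part of macrophages in the Stab2 value was not tested. A count of spots did not show the WT excess. When spots of at least 1000 UMIs were each thinned to 1000, Stab2 was found in 26 of 189 rim spots and 13 of 84 interior spots on WT, 13.8% (exact interval 9.19% to 19.5%) and 15.5% (8.51% to 25.0%). On Early the shares were 7.12% of rim spots (4.75% to 10.2%) and 12.2% of interior spots (8.17% to 17.2%), and on Advanced 1 they were 6.77% (3.65% to 11.3%) and 11.9% (8.84% to 15.5%), with intervals that overlapped on each of these areas. On Advanced 2 the shares were 7.07% and 23.4%, with intervals apart.

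Lyve1, Flt4 and Stab1 did not pass the interaction test. Lyve1 stood at 3.39 in the rim and 2.25 in the interior on WT, 1.85 and 2.43 on Early, 1.19 and 1.11 on Advanced 1, and 1.93 and 2.26 on Advanced 2 (interaction -0.79, adjusted p = 0.282). Without Advanced 1 the Lyve1 interaction passed (-0.90, adjusted p = 0.0197). Flt4 stood at 1.46 and 1.39 on WT, 0.648 and 0.914 on Early, 0.649 and 1.12 on Advanced 1, and 0.877 and 1.29 on Advanced 2 (interaction -0.68, adjusted p = 0.417). Stab1 stood at 2.70 and 2.57 on WT, 1.51 and 2.36 on Early, 1.35 and 1.89 on Advanced 1, and 1.80 and 2.19 on Advanced 2 (interaction -0.55, adjusted p = 0.454). Flt4 and Stab1 were thus level between rim and interior on WT, and lower in the rim on the TNF-Tg areas with intervals below 0. In the thinned spots Lyve1 was found in 20.6% of rim spots (exact interval 15.1% to 27.1%) and 8.33% of interior spots (3.42% to 16.4%) on WT. Its shares were 9.76% and 14.0% on Early and 10.9% and 9.56% on Advanced 1. The intervals overlapped on these areas. On Advanced 2 its shares were 8.83% (5.80% to 12.8%) and 19.9% (15.7% to 24.7%), with intervals apart.

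Ccl21a stood at 12.0 in the rim and 12.9 in the interior on WT, 3.74 and 5.63 on Early, 7.46 and 11.6 on Advanced 1, and 7.06 and 14.9 on Advanced 2 (interaction -0.67, adjusted p = 0.303). The interior of Advanced 2 had the highest and the rim of Early the lowest of these 8 levels. Without Advanced 1 the interaction of Ccl21a passed (-0.74, adjusted p = 0.00352). Reln was lower in the rim on the 3 TNF-Tg areas, at 0.196 and 0.342 on Early, 0.204 and 0.375 on Advanced 1, and 0.562 and 0.917 on Advanced 2, against 0.474 and 0.348 on WT. Itga2b stood at 1.71 and 1.95 on WT, 1.40 and 2.92 on Early, 1.17 and 1.62 on Advanced 1, and 1.46 and 1.75 on Advanced 2, and was lower in the rim on each area.

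The sparser genes gave wide intervals. Prox1 had 35 UMIs in the rim and 3 in the interior on WT, a log2 ratio of 1.60 with an interval from -0.062 to 3.95, and ratios from -1.07 to -0.10 on the TNF-Tg areas. Mmrn1 had ratios of 0.56 on WT, -0.39 on Early, 0.15 on Advanced 1 and 0.082 on Advanced 2, each with an interval across 0. Pdpn had ratios of -0.53, -0.63, 0.087 and -0.47 in the same order, and the interval of Early alone lay below 0. These 3 genes did not pass any of the rim tests over the 4 areas.

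Markers of other cells also differed between rim and interior. Over the 4 areas 9 of 9 tested fat markers were higher in the rim (median 2.46 on the log2 scale), led by Car3, Adipoq, Cfd and Retn. The red cell genes Hbb-bs, Hba-a1, Hba-a2 and Hbb-bt were higher there (4 of 5 called), as were the B cell genes Ms4a1, Cd79b and Cd79a (3 of 5), the venule genes Glycam1 and Madcam1 (2 of 5), the macrophage gene Siglec1 (1 of 12) and the platelet gene Pf4 (1 of 3). The summed sinus macrophage level was nevertheless lower in the rim on the TNF-Tg areas, at 50.2 UMIs per 10000 against 83.4 in the interior on Early, 35.1 against 47.1 on Advanced 1 and 51.1 against 66.6 on Advanced 2, and higher in the rim on WT, at 89.9 against 55.5. Cd8a, Cd3e and Trac were lower in the rim (3 of 6 T cell markers), and so was Pdgfrb (1 of 10 reticular cell markers). Of 10 blood endothelial markers 0 passed. The summed fat level ran from 8.38 to 23.7 UMIs per 10000 in the rim of the areas and from 4.13 to 9.47 in the interior, and its part in the levels of the lymphatic genes was not tested.

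Levels by ring of spots from the edge followed the values inward, where most spots were shallow. Ccl21a stood at 7.06 in the first ring of Advanced 2, then at 11.2, 13.1 and 13.9 in the next rings, and at 20.1 from the fifth inward. On Early it stood at 3.74 and 3.59 in the first pair of rings and at 10.5 from the fifth inward. On WT it stood at 12.0 in the first ring (interval 11.4 to 12.6), 12.5 in the next and 15.2 in ring 3 (12.7 to 18.1), above the first, and then at 10.2 and 11.9, on 24 and 15 UMIs, with intervals that overlapped those of the other rings. On Advanced 1 it stood at 7.46, 7.29, 12.7 and 11.4 in the first 4 rings and at 13.4 from the fifth inward. Ccl21a was thus higher in the deepest class than in the first on each TNF-Tg area, with counting intervals apart. The rings were pooled over the pieces of an area and not followed within single pieces. On Early and Advanced 2, differences between pieces and differences with depth were therefore not told apart.

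Stab2 stood at 2.13, 1.60 and 0.730 in the first 3 rings of WT, and at 1.05, 1.85 and 2.14 in those of Early. On Advanced 2 it went from 1.53 in the first ring to 3.27 in the fourth. Ring 3 of WT rested on 6 UMIs and the fourth on 0, in 23443 UMIs of all genes, and from the fifth inward Stab2 stood at 2.39 on 3 UMIs (interval 0.493 to 6.98), so the deep rings of WT give no order. Lyve1 stood at 3.39, 2.50 and 1.95 in the first 3 rings of WT, and at 1.19 at the edge of Advanced 1 and 1.14 from the fifth ring inward. Itga2b on Early went from 1.40 at the edge to 4.41 in the fourth ring.

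**Figure D4:**
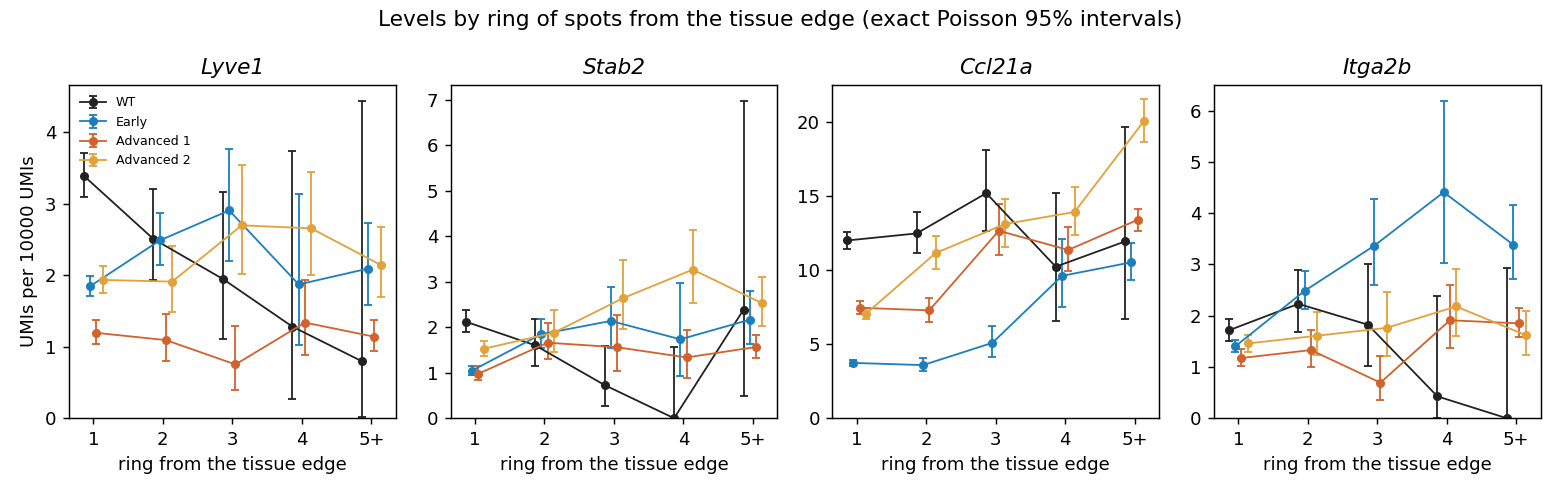
Levels of Lyve1, Stab2, Ccl21a and Itga2b by ring of spots counted from the tissue edge (5+ means the fifth ring and deeper), in UMIs per 10000 UMIs, 1 line per capture area with exact Poisson 95% intervals. Ccl21a is higher from the fifth ring inward than at the edge on the 3 TNF-Tg areas, at 20.1 on Advanced 2, while the deep rings of WT have wide intervals.

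Co-occurrence was counted over the 2057 spots of at least 1000 UMIs, each thinned to 1000 UMIs so that depth was equal. Spots with both genes of a pair were set against the number that the shares of the genes give within each area and region. Of 45 pairs 35 had at least 5 expected spots, and in 26 of the 35 the ratio of observed to expected spots was above 1, with a median of 1.26. Spots are neighbours on 4 sections and share libraries, so these ratios are a description.

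Flt4 and Mmrn1 had the highest ratio, with 15 spots observed and 7.57 expected (1.98), above 1 on 4 of 4 areas. Lyve1 and Stab2 were found together in 61 spots with 35.4 expected (1.72), Flt4 and Stab2 in 36 with 22.0 expected (1.64), and Stab1 and Itga2b in 69 with 46.2 expected (1.49), each above 1 on 4 of 4 areas. Lyve1 with Stab1 (56 spots, ratio 1.42) and Lyve1 with Flt4 (32 spots, ratio 1.48) were above 1 on each area too. Flt4 and Stab1 were found together in 22 spots with 25.4 expected (0.86), above 1 on 2 of 4 areas, with the lowest ratio, 0.35, on Advanced 2.

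Ccl21a was found in 1031 of the 2057 spots, and its ratios with the other 9 genes lay between 0.88 and 1.13. A gene found in so many spots has less room for a high ratio than a sparse gene, so this range does not set it apart. With Itga2b it was found in 140 spots with 158 expected (0.88), below 1 on each of the 4 areas. Pdpn and Itga2b had the lowest ratio, 0.73, on 5 observed spots. Prox1 was seen in 41 thinned spots, so that 3 of its pairs could be judged: 11 spots with Itga2b and 6.29 expected, 9 with Stab1 and 5.90 expected, and 22 with Ccl21a and 20.4 expected. Without thinning the median ratio was 1.54 and all 45 pairs were above 1, and depth differs between those spots.

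**Figure D5:**
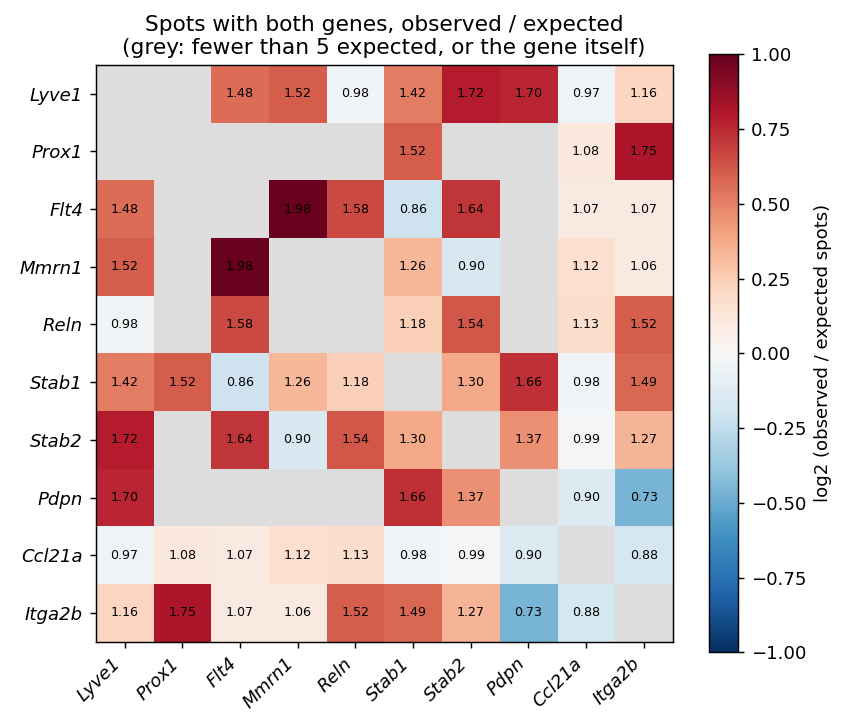
Ratio of observed to expected numbers of spots with both genes, over spots thinned to 1000 UMIs on the 4 areas (numbers are ratios, colour is their log2, grey pairs have fewer than 5 expected spots). Flt4 with Mmrn1 (1.98) and Lyve1 with Stab2 (1.72) are high, and the row of Ccl21a lies between 0.88 and 1.13.

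The spots with a lymphatic gene also differed in other cells. Spots with Itga2b held on average 8.15 UMIs of the sinus macrophage list per 1000 and those without it 4.78, a ratio of 1.71 and higher on 4 of 4 areas. The ratio was 1.70 for Reln, 1.62 for Lyve1, 1.52 for Stab1 and 1.42 for Stab2, each on 4 of 4 areas, and 0.90 for Ccl21a, higher on 2 of 4. Spots with Ccl21a held more of the reticular cell list (ratio 1.35) and of the T cell list (1.45), on 4 of 4 areas each. The reticular ratio was not particular to Ccl21a. It was 1.31 for Reln, 1.30 for Flt4, 1.24 for Mmrn1 and Stab2, 1.15 for Lyve1 and 1.11 for Itga2b, on 4 of 4 areas each. For Prox1 (1.23), Stab1 (1.12) and Pdpn (1.11) it was higher on 3 of 4. The T cell ratio of Flt4 was 1.13, on 4 of 4. B cell markers were lower in spots with Flt4 (0.76), Mmrn1 (0.59), Lyve1 (0.71), Stab1 (0.74), Stab2 (0.75), Prox1 (0.74), Itga2b (0.79) and Ccl21a (0.78), on 4 of 4 areas for each of these.

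The genes whose spot pattern was most like each member were found by Pearson correlation of log2(UMIs per 10000 + 1), averaged over the 4 areas, among 10071 genes seen in at least 5% of the spots of at least 1000 UMIs. Cd209b, a C-type lectin of sinus macrophages, was nearest to Lyve1 (mean r 0.38) and to Stab2 (0.33), and Marco, a scavenger receptor of macrophages and medullary lymphatics, was nearest to Stab1 (0.35) and to Itga2b (0.35). Ccl8 came second for Lyve1 (0.38), Stab1 (0.33) and Stab2 (0.32). The others of the leading 5 were Selenop, Marco and C1qb for Lyve1, Selenop, Cd209b and Apoe for Stab1, Marco, Apoe and Selenop for Stab2, and Cd209b, Ccl8, Selenop and C1qb for Itga2b.

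For Ccl21a the nearest genes were Cxcl12 (0.34), Trbc2 (0.25), Ccl19 (0.24), Ighg3 and Ccl5, of which Cxcl12 and Ccl19 are chemokines of the stroma. Flt4 was nearest to Ccl8 (0.27), Selenop, Cxcl12, Cldn5 and Cd209b, and Mmrn1 to Cldn5 (0.26), a tight junction gene of endothelium, then Ccl8, Selenop, Apoe and Plvap. Reln was nearest to Ccl8 (0.21), Apoe, Marco, Selenop and C1qc. For Prox1 (Il6st, C1qc, Ccl8, Pros1, Kdr) and Pdpn (Naa20, Syngr2, Srek1ip1, Arhgef10l, Ccl12) the highest mean r were 0.15 and 0.13, and such weak values in sparse counts order nothing. Among the members themselves the highest mean r were 0.25 for Lyve1 with Stab1 and 0.24 for Stab1 with Stab2.

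The wider pathway was followed in 34 genes of VEGF-C signalling, lymphatic transcription factors, lymph node lymphatic subsets and junctions. In rim against interior 3 of 30 tested were higher and 1 lower (median -0.12). Coch, a marker of the lymphatic floor, was higher in the rim by 2.55 on the log2 scale (adjusted p = 5.20e-07, edgeR). Gja4 was higher there by 1.06 and Madcam1 by 0.89. Madcam1 counts in both the venule and the lymphatic list used here. Ptx3, which the study assigned to central medullary sinuses, was lower (-1.34, adjusted p = 0.0493, edgeR). In Advanced against Early 2 of 32 rose and 3 fell (median 0.077), and in Advanced against WT 2 rose and 5 fell (median -0.090). These were named after their values were seen: Nts and Fgl2 rose and Gja4, Madcam1 and Coch fell against Early, and Madcam1 and Coch rose and Marco, Fgl2, Gja1, Tbx1 and Cldn5 fell against WT.

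The ligand gene Vegfc stood at 0.122 UMIs per 10000 on WT, 0.0965 on Early, 0.195 on Advanced 1 and 0.116 on Advanced 2, on 22 to 66 UMIs an area. Vegfd, the other ligand of VEGFR-3, rested on 13 to 26 UMIs an area. Neither passed in any of the comparisons, and Kdr, Nrp2, Sox18 and Nr2f2 did not pass either. The interaction of genotype and region called 1 of 32 of these genes, Marco, which also counts among the macrophage markers.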

How the data were processed

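The deposited files hold raw UMI counts for each gene in each spot under tissue, which the authors made with Space Ranger 1.1.0 on mm10 (GRCm38, per the submitters' processing notes) and did not normalize. Features that share a symbol were summed. Counts were summed per capture area, or per area and region, because the area is the replicate and spots are not. Sums were tested with edgeR 4.0.16 (R 4.3.3) by the quasi-likelihood F test after filterByExpr and TMM, with Benjamini-Hochberg adjustment over all genes kept and a threshold of 0.05. DESeq2 1.42.0 was an alternative. Rim against interior had the area as a block because both regions of an area come from the same section. P-values rest on the spread between areas of 1 slide, pooled over genes by edgeR. In the stage comparisons, with 1 residual degree of freedom, they say little about how well a single gene repeated between areas. The test was checked on simulated counts that had the same spread in every group. That check therefore does not bear on the spread assumed for the lone WT and Early areas. Levels and ratios carry exact 95% intervals (Poisson, or Clopper-Pearson for shares), which cover counting error only. Depth was 1808678 UMIs on the WT area, 5180493 on Early, 3378219 on Advanced 1 and 3198238 on Advanced 2. A count of 0 allows a level of up to 3 counts, 0.0166 UMIs per 10000 on the WT area. Visium barcodes are array positions that every area shares, and were not compared between areas.

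Named genes were the 10 genes, the copies of Ccl21a, up to 4 called genes of each marker or pathway list with the largest difference in rim against interior, and the 5 genes most like each member seen in at least 10% of deep spots. Members and lists were chosen with earlier results of these data known. The authors' clustering and the image scale factors were not used here. Other settings tried were RLE factors, no filter, minimum depths of 500 and 1000 UMIs, other rims, no area block and leaving out each area.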

Additional observations from a re-analysis of the deposited data

Results flagged for a closer look

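Stab2 was singled out because its rim-to-interior difference on the 3 TNF-Tg areas differed from that on the WT area by a test of the difference itself (-1.43 on the log2 scale, adjusted p = 0.0102, edgeR). Its level was higher in the rim on WT (2.13 against 1.34 UMIs per 10000) and lower in the rim on each TNF-Tg area. The comparison was chosen after the data were seen, WT is a single area, and in thinned spots the WT shares of rim and interior were 13.8% and 15.5%. No group had the 4 samples needed to examine a sample as standing apart.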

How the results depend on the processing

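The number of the 10 genes called moved with the settings. In rim against interior (2 in the main analysis) it was 1 with DESeq2, 6 in spots of at least 1000 UMIs and 0 to 6 on leaving out an area. With no area block it was 0 (1 at an unadjusted p under 0.05, beside 1657 of 10998 genes tested). All genes called, 890, became 412 with DESeq2, 159 with no area block, 517 with a rim of 2 rings, 438 and 536 in spots of at least 1000 and 500 UMIs, and 272 to 1119 on leaving out an area. In Advanced against Early (2 genes) it was 1 with DESeq2, in interior spots, in rim spots and in spots of at least 1000 UMIs, and all genes called, 152, became 6, 36, 18 and 90 in the same order. In Advanced against WT (4 genes) it was 0 with DESeq2 and in interior spots and 2 in rim spots, with all genes called, 272, at 36, 40 and 126. The TNF-Tg against WT interaction (1 gene of 24 called) gave 2 of 82 without the second ring and 1 to 3 of 9 to 111 on leaving out a TNF-Tg area. In interior spots alone 3 genes were highest on WT, against 6 over all spots. The median co-occurrence ratio (1.26) was 1.54 without thinning and 1.23 in spots thinned to 2000 UMIs. It was 1.095 in spots thinned to 500 UMIs, with 15 of 21 pairs above 1, and 1.12 to 1.24 on leaving out an area.

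Signs turned for genes that had not passed. Lyve1 in rim against interior (0.061) was -0.099 and -0.026 in spots of at least 1000 and 500 UMIs, and -0.11 (without WT) to 0.19 (without Early) on leaving out an area. In Advanced against Early, Stab1 ran from -0.17 to 0.11 and Stab2 from -0.074 to 0.49 on leaving out an area. In Advanced against WT, Prox1 was -0.48 in rim spots and -0.040 in spots of at least 500 UMIs, Reln was -0.36 and Pdpn 0.039 in rim spots, and Stab2 was 0.51 in interior spots. On leaving out an area Prox1 ran from -0.042 to 0.082, Reln from -0.74 to 0.52 and Pdpn from -0.15 to 0.077. The Pdpn interaction ran from -0.032 to 0.31. The cause was not tested. Leaving out 1 Advanced area gave values without a test. Of 370 single-gene values under these settings, 303 kept direction and side of the threshold and 14 changed sign. Interior depth on WT was 373714 UMIs, which limits the rim comparisons there.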
